A study of Mus musculus with 12 samples.

Results

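Klhl38, Asb15, Asb2, Fbxo32, Trim63 and Rnf122 are genes of the muscle ubiquitin system, and their RNA was followed through mouse hearts under pressure overload. They were taken by name, each as its brightest probe set annotated with that symbol alone, and 6 of 6 were found among the 26989 genes measured. The list was drawn up with results of these same data known. Klhl38 and Rnf122 were among the genes lowered by surgery in wild type hearts, and Asb15 was among those with the smallest p-values between genotypes after surgery, so for these genes those contrasts are described, and a count that includes them there supports nothing.

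The study hybridised total RNA from 12 hearts of male C57BL/6J mice aged 10 weeks to Affymetrix Clariom D mouse arrays (MTA 1.0), with 1 array per sample. Mice were wild type or knockout for ADAM12, a membrane-anchored metalloprotease, and had undergone either a sham operation or transverse aortic constriction (TAC), a banding of the aortic arch that loads the left ventricle. Hearts were collected 2 weeks after surgery. The 4 groups were wild type sham, wild type TAC, knockout sham and knockout TAC, with 3 biological replicates in each per the labels. The labels do not say how the ADAM12 allele was made, which part of it is deleted, or which chambers of the heart were taken. Levels are log2 signals, so a difference of 1 is a doubling. Each p-value weighs a difference between group means against the spread of these samples within their groups.

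Protein breakdown in muscle runs largely through the proteasome, which degrades proteins tagged with ubiquitin, and E3 ligases choose what is tagged. In cullin RING ligases a scaffold protein carries exchangeable substrate adaptors: F-box proteins on CUL1, BTB-Kelch proteins on CUL3 and SOCS-box proteins such as the ASB family on CUL5, whereas single RING proteins recruit substrate and E2 enzyme themselves. Fbxo32 (atrogin-1, also MAFbx) and Trim63 (MuRF1) are the classical atrophy ligases, induced by FoxO transcription factors and glucocorticoids in wasting muscle and held down by insulin and AKT signalling. Asb2 and Asb15 are adaptors found mainly in striated muscle, Klhl38 is a Kelch protein of striated muscle, and Rnf122 is a membrane-bound RING ligase.

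Promoter sequence was at hand in RefSeq (GRCm38.p6) for 3 of the 6 genes, as windows from 250 bases before to 50 bases after a start site. They are shown because Trim63 is a textbook FoxO and glucocorticoid target while Asb15 and Asb2 were among the genes that fell. Capitals mark matches on either strand. The FoxO motif searched was TGTTTAC and the core of the glucocorticoid receptor site was ACANNNTGT. The TATA box was searched as TATAAA, and the CArG box of serum response factor by its consensus. MEF2 sites were searched too and matched none of these windows.
Trim63, chr4:134314870-134315169, plus strand: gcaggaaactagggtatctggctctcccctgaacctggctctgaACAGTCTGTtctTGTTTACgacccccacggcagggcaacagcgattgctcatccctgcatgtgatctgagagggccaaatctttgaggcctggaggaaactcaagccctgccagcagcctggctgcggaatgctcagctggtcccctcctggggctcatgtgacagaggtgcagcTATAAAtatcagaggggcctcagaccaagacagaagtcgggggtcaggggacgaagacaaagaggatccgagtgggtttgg
Asb15, chr6:24527894-24528193, plus strand: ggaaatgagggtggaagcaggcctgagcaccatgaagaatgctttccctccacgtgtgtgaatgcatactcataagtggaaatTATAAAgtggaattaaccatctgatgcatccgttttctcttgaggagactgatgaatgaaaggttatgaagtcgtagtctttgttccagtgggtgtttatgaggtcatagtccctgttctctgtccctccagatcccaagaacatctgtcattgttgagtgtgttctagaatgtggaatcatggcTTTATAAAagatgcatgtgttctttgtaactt
Asb2, chr12:103355952-103356251, minus strand: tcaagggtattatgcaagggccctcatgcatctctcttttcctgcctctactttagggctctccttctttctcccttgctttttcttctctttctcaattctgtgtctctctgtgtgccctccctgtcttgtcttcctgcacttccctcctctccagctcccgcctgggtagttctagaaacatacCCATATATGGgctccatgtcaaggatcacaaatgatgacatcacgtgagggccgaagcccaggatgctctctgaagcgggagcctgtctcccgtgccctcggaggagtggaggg
In the Trim63 window the glucocorticoid core began at position -206, the FoxO match at -194 and the TATA box at -31 from the start site. The Asb15 window held a TATA box at -167 and a run with overlapping matches on both strands at 19 and 21, past the start site. The Asb2 window held a CArG box at -64, and a further Asb2 start site at chr12:103338341-103338640 on the minus strand held none of the motifs. Among 32851 mouse promoters of this length, the FoxO letters occurred in 3.65%, the glucocorticoid core in 6.85%, the TATA box in 13.6%, the CArG box in 1.63% and the MEF2 site in 3.19%. These matches describe letters in a window and not bound sites.

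The 12 arrays had medians between 5.35 and 5.50 log2 units over the genes tested, and 23 background probe sets had array medians of 2.96 to 3.17 with a 95th percentile of 5.70. Klhl38 was brighter than 93.7% of genes measured, Trim63 than 94.7%, Fbxo32 than 96.5%, Asb15 and Asb2 than 96.9%, and Rnf122 than 72.3%. The probe set of Adam12 also carries the symbol 5830403F22Rik and was dim. It read 4.46 to 4.80 in wild type arrays and 4.25 to 4.40 in knockout arrays, without overlap, and differed by -0.37 ± 0.09 (SE) between genotypes after TAC with an adjusted p of 0.163 in limma, so it bears on the labels only weakly. None of 14 cardiomyocyte markers lay under the background percentile in any group, whereas 11 of 14 skeletal muscle markers did, and 12 in knockout TAC hearts.

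TAC lowered 4 of the 6 genes in knockout hearts and left the classical atrophy pair without a detected change. Of the 4, Asb15 was listed on a contrast that uses the same 3 knockout TAC arrays, so its place in this count is not independent of the choice. Asb15 was 3.06-fold lower, Klhl38 3.00-fold, Asb2 1.76-fold and Rnf122 1.64-fold, while Fbxo32 and Trim63 differed by -0.30 and -0.20 log2 units and did not pass the test. Differences were negative for all 6 genes in each genotype. This is a description, since Klhl38, Rnf122 and Asb15 were listed on contrasts that use some of these arrays. Averaged over genotypes the same 4 genes were called lower, where 6.12% of all genes were, but that average contains the wild type arrays on which Klhl38 and Rnf122 were listed and the knockout TAC arrays on which Asb15 was, and nothing is read from it for them. Over all genes, 5.68% were called lower in knockout hearts after TAC, against 0.111% in wild type hearts, where 2 of the 6 were called (Klhl38 and Rnf122, the pair chosen on that contrast, so the count is a description). These shares include many dim genes, whereas each of the 6 was brighter than at least 72.3% of genes. With dim genes left out, limma called 1859 of 12947 genes lower in knockout hearts and 118 in wild type hearts. Leaving out one of several arrays, or fitting only the arrays compared, took the wild type count to 0. This held for the 3 wild type sham arrays, wild type TAC replicates 1 and 2, replicates 2 and 3 of knockout sham, and replicate 3 of knockout TAC, each left out alone. With replicate 1 of either knockout group left out it was 1, Rnf122. Between genotypes limma called 0 of the 6, with unadjusted p-values under 0.05 for 1 gene after sham surgery (Rnf122), 1 after TAC (Asb15) and 2 in the interaction of genotype and surgery (Asb15 and Asb2). Asb15 was listed on the contrast after TAC, which is part of the interaction, so neither of its p-values supports anything. Over all genes limma called 0% after sham surgery, 0.0111% after TAC and 0% in the interaction. Unadjusted p-values in limma were under 0.05 for 1495, 3928 and 2963 of the 26989 genes, in the same order. The median difference of the 6 genes was -0.54 in wild type and -0.76 in knockout hearts, beside 0.02 and -0.03 over all genes. Both medians include the genes listed on contrasts that use some of the same arrays, so nothing is read from the medians.

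**Figure D1:**
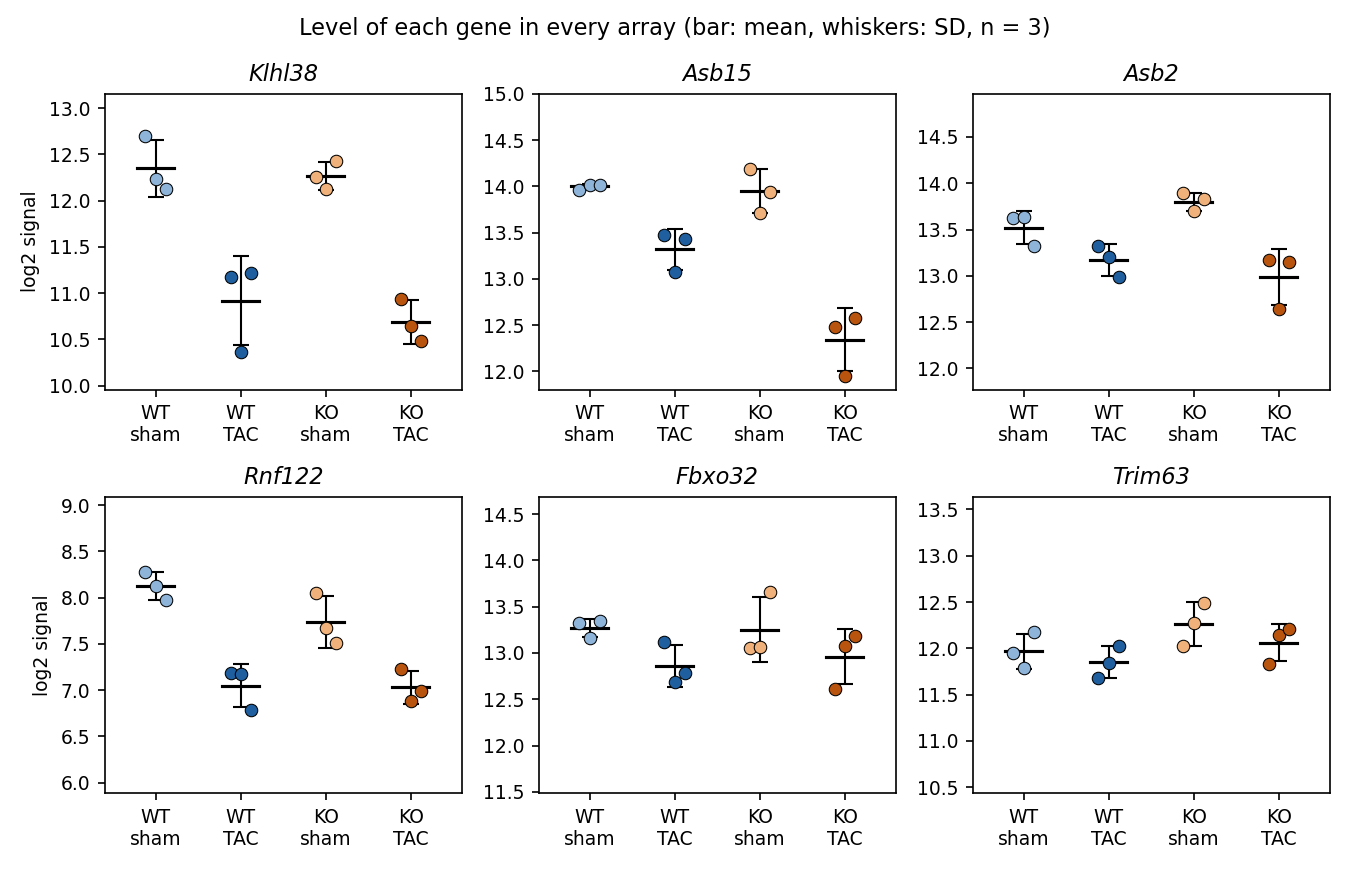
Each point is 1 array and the y axis is the log2 signal of the gene, with bars at the group mean and whiskers of 1 SD (n = 3) for wild type (WT) and knockout (KO) hearts after sham surgery or TAC. Klhl38, Asb15 and Rnf122 show TAC arrays below the sham arrays of the same genotype, whereas the groups of Trim63 overlap.

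Klhl38, the BTB-Kelch protein of the set, read 12.70, 12.23 and 12.13 in wild type sham hearts and 12.25, 12.13 and 12.43 in knockout sham hearts. After TAC it read 11.17, 10.36 and 11.22 in wild type hearts and 10.94, 10.64 and 10.48 in knockout hearts. All 6 TAC arrays lay below all 6 sham arrays, as they did for 2.8% of all genes, though the wild type arrays among them chose Klhl38. Within each surgery the genotypes overlapped. Every TAC array lay below every sham array for 7.07% of all genes in wild type and 16.9% in knockout hearts. Group means were 12.35 ± 0.31 (SD, n = 3) against 10.92 ± 0.48 in wild type hearts, a difference of -1.44 ± 0.23 (SE) that is given as a description. In knockout hearts, whose arrays are not in that contrast, the means were 12.27 ± 0.15 and 10.69 ± 0.24, a difference of -1.59 ± 0.23 with an adjusted p of 0.00106 in limma. This p-value uses the spread pooled over all 12 arrays, so it is not fully independent of the choice. Between genotypes Klhl38 differed by -0.08 ± 0.23 after sham surgery and by -0.23 ± 0.23 after TAC, with adjusted p-values of 0.999 and 0.686 in limma. A second Klhl38 probe set was dim, at a mean of 4.86 under the background percentile, and differed by -0.13 ± 0.14 in wild type and 0.04 ± 0.14 in knockout hearts. Its level was within the range of the background probe sets.

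Asb15, an ankyrin-repeat and SOCS-box adaptor, read 13.96, 14.01 and 14.01 in sham hearts of wild type mice and 14.19, 13.71 and 13.94 in those of knockout mice. After TAC the wild type hearts read 13.47, 13.07 and 13.43 and the knockout hearts 12.48, 11.95 and 12.58. Knockout TAC arrays lay below every wild type TAC array, which in turn lay below every sham array. All TAC arrays lay below all sham arrays for 2.8% of all genes, though the TAC arrays among them chose Asb15. In knockout hearts the mean fell from 13.95 ± 0.24 to 12.34 ± 0.34 (SD, n = 3), a difference of -1.61 ± 0.17 (SE) with an adjusted p of 0.000419 in limma. In wild type hearts it went from 14.00 ± 0.03 to 13.32 ± 0.22, and the difference of -0.67 ± 0.17 (95% interval -1.05 to -0.30) did not pass, at an adjusted p of 0.135 in limma. Knockout TAC hearts were 0.99 ± 0.17 log2 units below wild type TAC hearts (difference -0.99, interval -1.36 to -0.61), the contrast on which Asb15 was listed. Every array of knockout TAC lay below every array of wild type TAC for 11.3% of all genes. Knockout TAC arrays enter both of these contrasts. The interaction of genotype and surgery was -0.94 ± 0.24 (interval -1.47 to -0.41), with an adjusted p of 0.263 in limma. It contains the contrast on which Asb15 was listed, so it is given as a description.

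Asb2, the adaptor whose best known substrates are filamins, read 13.62, 13.64 and 13.32 in wild type sham and 13.32, 13.20 and 12.99 in wild type TAC hearts. In knockout hearts it read 13.89, 13.70 and 13.83 after sham surgery and 13.17, 12.64 and 13.15 after TAC. The wild type groups met at 13.32, whereas knockout TAC lay below knockout sham without overlap, as for 16.9% of all genes. Knockout means fell from 13.80 ± 0.10 to 12.99 ± 0.30 (SD, n = 3), by -0.82 ± 0.15 (SE) with an adjusted p of 0.00408 in limma. The wild type difference was -0.36 ± 0.15 (interval -0.68 to -0.03), with an adjusted p of 0.364 in limma. Knockout sham hearts read above wild type sham hearts on every array, by 0.28 ± 0.15, but with an adjusted p of 0.911 in limma; every knockout array lay above every wild type array for 6.43% of all genes. After TAC the genotypes overlapped, at a difference of -0.18 ± 0.15, and the interaction of genotype and surgery was -0.46 ± 0.21 with an adjusted p of 0.455 in limma.

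Rnf122, the RING ligase anchored in membranes, was the dimmest of the set. Sham hearts read 8.28, 8.13 and 7.98 in wild type and 8.05, 7.67 and 7.51 in knockout mice. TAC hearts read 7.19, 7.17 and 6.79 in wild type and 7.23, 6.88 and 6.99 in knockout mice. All 6 TAC arrays lay below all 6 sham arrays, as for 2.8% of all genes, though the wild type arrays among them chose this gene. The wild type means of 8.13 ± 0.15 and 7.05 ± 0.23 differed by -1.08 ± 0.16 (SE), given as a description. Knockout means fell from 7.74 ± 0.28 to 7.03 ± 0.18, by -0.71 ± 0.16 with an adjusted p of 0.0118 in limma, and without the second knockout TAC array the difference was -0.63 with an adjusted p of 0.057 in limma. Both p-values use a spread pooled over all groups, so they are not fully independent of the choice. Knockout sham hearts read 0.39 ± 0.16 log2 units lower than wild type sham hearts (difference -0.39, adjusted p = 0.891 in limma), with overlap, and after TAC the difference was -0.02 ± 0.16.

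Fbxo32, the F-box adaptor of a CUL1 ligase, read 13.32, 13.16 and 13.34 in wild type sham and 13.12, 12.69 and 12.78 in wild type TAC hearts. Knockout hearts read 13.05, 13.06 and 13.66 after sham surgery and 12.61, 13.07 and 13.18 after TAC. Wild type TAC arrays lay just below wild type sham arrays, as they did for 7.07% of all genes, but knockout groups overlapped. Differences were -0.41 ± 0.19 (SE, interval -0.82 to 0.00) in wild type and -0.30 ± 0.19 (interval -0.71 to 0.12) in knockout hearts, with adjusted p-values of 0.408 and 0.385 in limma. Averaged over genotypes, TAC differed from sham by -0.35 ± 0.13 with an adjusted p of 0.114 in limma, which became -0.39 and 0.0408 when the mean of 8 atrial marker genes entered the model, a setting chosen after seeing the data.

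Trim63, the RING ligase of the sarcomere, read 11.95, 11.79 and 12.18 in wild type hearts after sham surgery and 11.68, 11.84 and 12.02 after TAC. Knockout hearts read 12.02, 12.27 and 12.49 after sham surgery and 11.83, 12.14 and 12.21 after TAC. Neighbouring groups overlapped throughout. TAC differed from sham by -0.13 ± 0.15 (SE, interval -0.45 to 0.20) in wild type and by -0.20 ± 0.15 (interval -0.53 to 0.13) in knockout hearts, with adjusted p-values of 0.794 and 0.482 in limma. Genotypes differed by 0.28 ± 0.15 after sham surgery and 0.21 ± 0.15 after TAC, with adjusted p-values of 0.911 and 0.555 in limma. The intervals of Trim63 bound a fall at 0.45 and 0.53 log2 units in the 2 genotypes; a rise of over 0.20 lies outside both.

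**Figure D2:**
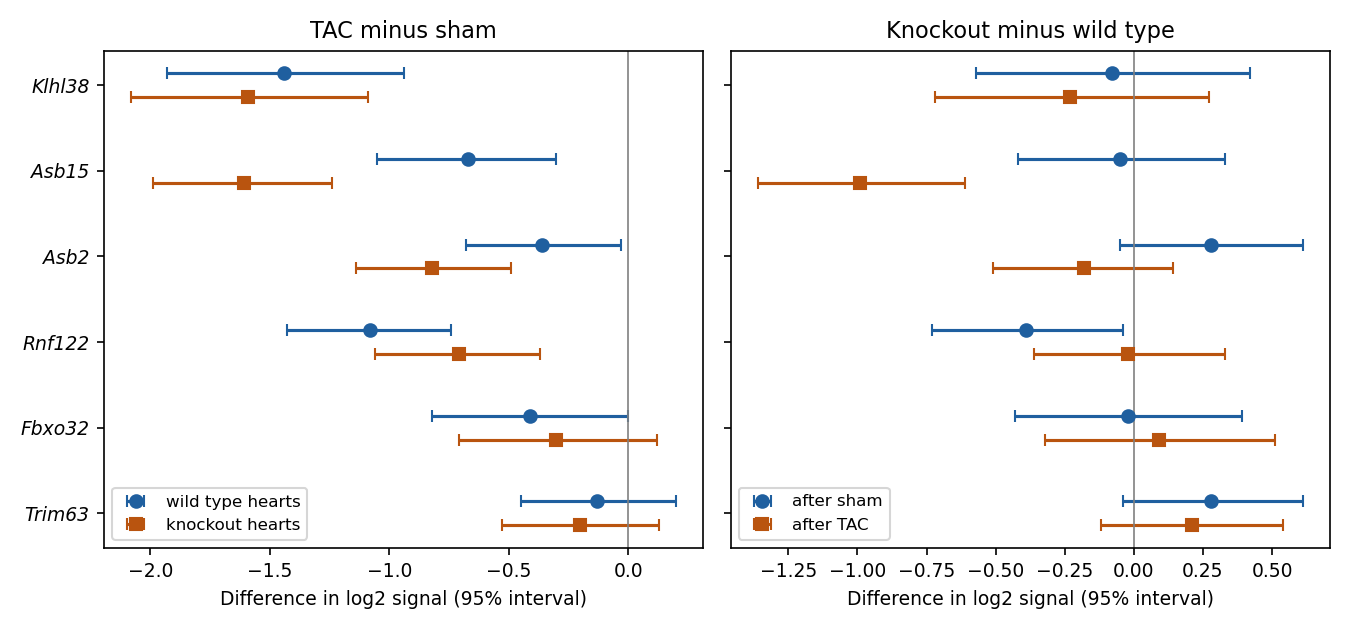
Differences in log2 signal with 95% intervals for each gene, with TAC minus sham on the left (circles wild type, squares knockout) and knockout minus wild type on the right (circles sham, squares TAC). Asb15 in knockout hearts sits at -1.61, and every interval of Trim63 includes 0.

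The order of the groups also differed between genes. For Klhl38 and Rnf122 the genotypes of each surgery could not be separated and only sham and TAC were apart. Asb15 separated into knockout TAC, wild type TAC and the sham pair, and Asb2 separated knockout sham from the rest. No neighbouring groups of Fbxo32 or Trim63 were apart. Fbxo32 and Klhl38 lie side by side on chromosome 15 as protein-coding neighbours in RefSeq, with 1 annotated gene, Gm36193, between them, yet the root mean square difference of their centred profiles over the 12 arrays was 0.67, against 0.24 for Fbxo32 and Trim63 and 0.42 for Klhl38 and Asb15. This measure grows with the size of the changes, and the SD over arrays was 0.28 for Fbxo32 and 0.22 for Trim63 against 0.80 for Klhl38.

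Markers of other cell types moved with TAC and are given beside the results. The mean of 14 cardiomyocyte markers stood at 16.56 after sham surgery and 16.52 after TAC in wild type hearts, and at 16.59 and 16.47 in knockout hearts, near the top of a scale ending at 19.93. Single markers moved more than this mean: in knockout hearts limma called 4 of 14 lower, Cox6a2 at -0.83 ± 0.15 (SE), Tnni3 at -0.58 ± 0.08, Ryr2 at -0.48 ± 0.08 and Pln at -0.30 ± 0.08, and 1 higher, Mybpc3 at 0.48 ± 0.11. In knockout TAC hearts 10 of 12 fibroblast markers and 10 of 10 macrophage markers were called higher. The fibroblast mean ran from 10.85 to 11.08 (wild type) and 10.85 to 11.02 (knockout) over sham arrays, and from 11.23 to 12.41 and 12.63 to 13.00 over TAC arrays. The macrophage mean ran from 8.03 to 8.31 and 7.93 to 8.29 over sham arrays, and from 8.68 to 8.87 and 8.98 to 9.77 over TAC arrays. Atrial markers ranged from 10.05 to 12.87 across arrays of every group, with none of 8 called. In bulk tissue, fewer cells of a type and less RNA per cell cannot be told apart. Wild type TAC replicate 2 had the lowest Klhl38, Asb15 and Fbxo32 of its group and the highest fibroblast mean. Its macrophage mean (8.68) was not the highest, and Asb2 and Rnf122 were lowest in replicate 3 and Trim63 in replicate 1. Knockout TAC replicate 2 had the lowest Asb15, Asb2 and Rnf122 of its group, the lowest cardiomyocyte mean (16.40) and the highest macrophage mean (9.77). The highest fibroblast mean (13.00) was in knockout TAC replicate 1, which had the highest Klhl38 (10.94) and the lowest Fbxo32 and Trim63. Klhl38 was lowest in knockout TAC replicate 3. The part of these marker shifts in the results was not tested.

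Set against the cardiomyocyte markers of each array, the same 4 genes were called lower in knockout hearts. Asb15 was listed on a contrast that uses the knockout TAC arrays, so its place here is not independent of the choice. Centring shifts every gene of an array by the same amount. The marker mean moved only from 16.59 to 16.47 in knockout hearts, so the larger differences could change little. Asb15 differed by -1.49 ± 0.15 (SE), Klhl38 by -1.46 ± 0.23, Asb2 by -0.69 and Rnf122 by -0.59 ± 0.15, with adjusted p-values of 0.000298, 0.00137, 0.0045 and 0.022 in limma. Fbxo32 and Trim63 then stood at -0.17 and -0.07. In wild type hearts Klhl38 stood at -1.40 and Rnf122 at -1.04, Asb15 at -0.64, Asb2 at -0.32, Fbxo32 at -0.37 and Trim63 at -0.09. This centring moved the median of all genes in knockout hearts from -0.03 to 0.09 and the split of calls from 1910 higher and 1534 lower to 3325 higher and 874 lower.

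**Figure D3:**
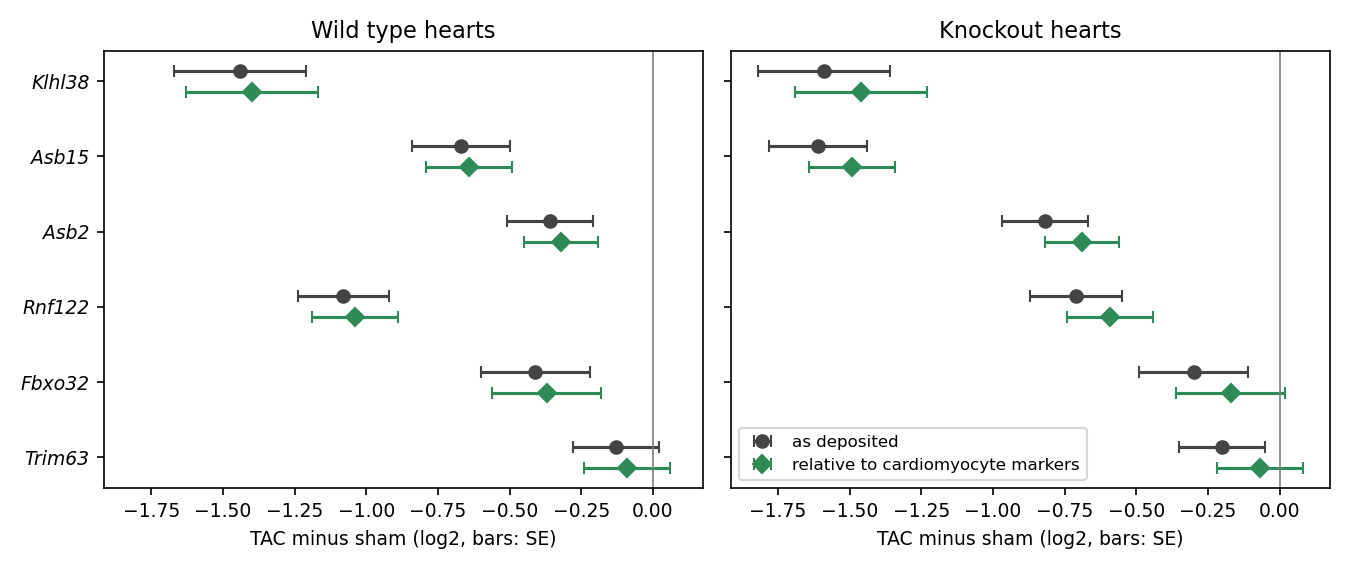
TAC minus sham in log2 units with SE, for wild type (left) and knockout hearts (right), on the deposited scale (circles) and relative to the mean of 14 cardiomyocyte markers on each array (diamonds). In knockout hearts Asb15 is at -1.61 and -1.49 on the 2 scales.

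Across 179 other genes of the ubiquitin system and atrophy programs, 11 were called higher and 39 lower in knockout hearts after TAC, where 7.08% and 5.68% of all genes were called. With dim genes left out, 2265 of 12947 genes were called higher and 1859 lower in that contrast. In wild type hearts limma called 0 of the 179 (39 had an unadjusted p under 0.05), and between genotypes after TAC it also called 0 (32 under 0.05). Over all 26989 genes, 3330 and 3928 had an unadjusted p under 0.05 in these contrasts. The median difference in knockout hearts was -0.07 over the 179 genes and -0.03 over all genes.

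The FoxO and atrophy list had 6 of 19 genes lower and none higher in knockout hearts. Fbxo31, an F-box ligase of the atrophy program, fell by 0.91 ± 0.13 log2 units (SE), the F-box gene Fbxo21 by 0.59 ± 0.10, and Foxo3, a transcription factor that induces Fbxo32 and Trim63, by 0.56 ± 0.10, with adjusted p-values of 0.00116, 0.00323 and 0.00481 in limma. Sesn1, Klf15 and Map1lc3b also passed, at -0.47, -0.72 and -0.30. Between genotypes after TAC limma called none of the 19, and 12 differences were negative. The smallest p-value there was that of Eif4ebp1, which read higher in knockout hearts by 0.30 ± 0.09, with an adjusted p of 0.133 in limma. In wild type hearts Foxo3 differed by -0.52 ± 0.10, with an adjusted p of 0.0824 in limma. Among insulin, AKT and calcineurin regulators 4 of 14 fell, including Pik3r1, a PI3-kinase regulatory subunit, at -1.02 ± 0.24, Akt2 at -0.45 ± 0.11 and Prkaa2, an AMPK catalytic subunit, at -0.44 ± 0.09, while the TNF receptor Tnfrsf1a rose by 0.57 ± 0.15. Of this list 2 were called lower with knockout sham replicate 1 or 3 left out and 1 with knockout TAC replicate 2 left out. Tnfrsf1a was not called with replicate 2 or 3 of the knockout sham group, or replicate 2 of the knockout TAC group, left out.

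Some relatives of the adaptors also fell in knockout hearts. Of 16 other ASB genes, 6 were called lower and none higher, 15 of 16 differences were negative and the median was -0.22. Asb14 fell by 1.48 ± 0.19 log2 units (SE), Asb10 by 0.86 ± 0.13 and Asb18 by 0.61 ± 0.08, with adjusted p-values of 0.000657, 0.00174 and 0.000653 in limma. Centred on cardiomyocyte markers, 5 of the 16 were called and 10 of 16 differences were negative. Between genotypes after TAC, 13 of 16 were negative and none was called by limma, with Asb14 at -0.76 ± 0.19 and an adjusted p of 0.0855. The median over all genes was -0.03 in knockout hearts, 0.09 there on the cardiomyocyte scale and -0.04 between genotypes after TAC. Of 20 KLHL and KBTBD genes, 8 fell and 1 rose. Klhl3 differed by -0.46, Kbtbd12 by -0.58 and Klhl7 by -0.40, whereas Klhl40, a Kelch protein that stabilises thin filaments, rose by 0.40. Of 13 scaffolds and shared adaptors, 2 passed narrowly, Cul3 at -0.29 ± 0.08 and Cul5 at -0.31 ± 0.09, with adjusted p-values of 0.0408 and 0.0464 in limma. Neither call held when the arrays were centred on cardiomyocyte markers (where 0 of 13 were lower and 2 higher), with the atrial covariate, or without any one of wild type sham replicates 1 and 2, knockout sham replicates 1 and 3 and the 3 knockout TAC arrays. Without replicate 3 of knockout sham or replicate 1 or 2 of knockout TAC, and on the cardiomyocyte scale, 5 of the KLHL and KBTBD genes were called lower instead of 8. Klhl40 was not called with replicate 2 or 3 of the knockout sham group, or replicate 1 or 2 of the knockout TAC group, left out.

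**Figure D4:**
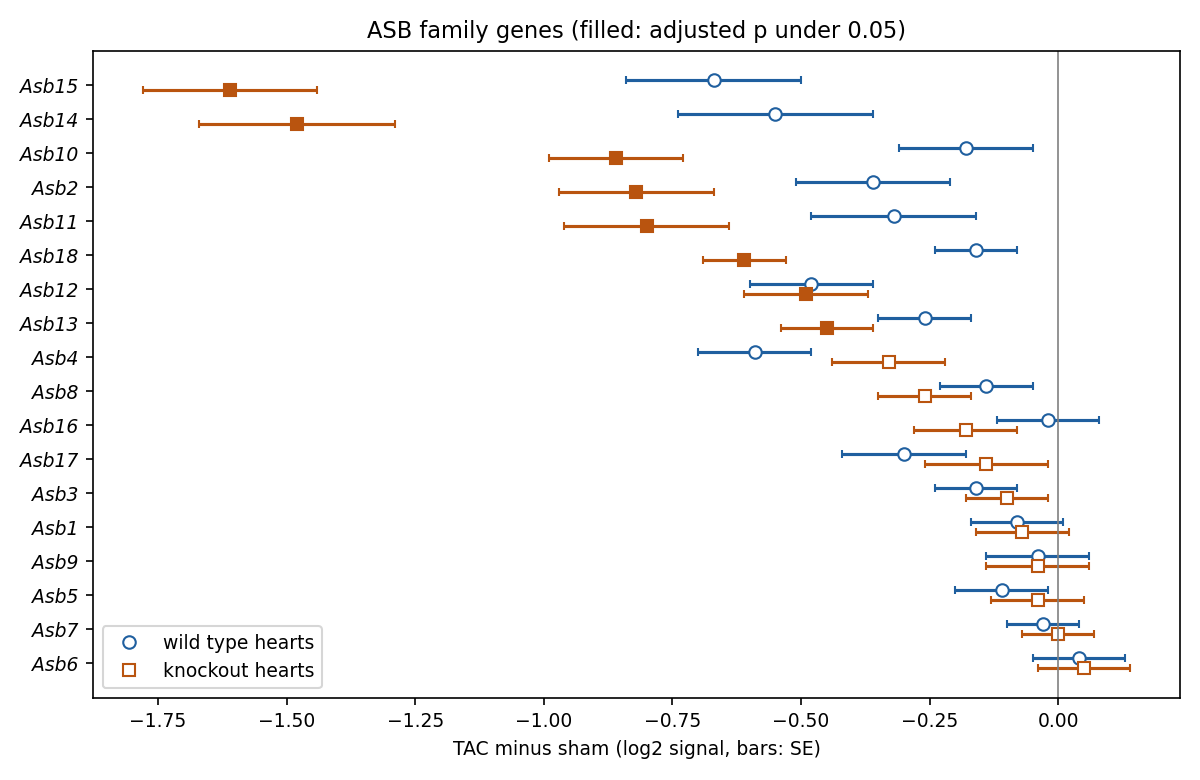
TAC minus sham in log2 units with SE for 18 ASB genes in wild type (circles) and knockout hearts (squares), filled where the adjusted p in limma was under 0.05. Asb15 at -1.61 and Asb14 at -1.48 lie lowest in knockout hearts.

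Other ligases moved in both directions. In the RING, HECT and U-box list 8 of 27 fell and 3 rose, with Mylip, a RING ligase of the LDL receptor, at -0.83 ± 0.13 (SE), Rnf207 at -0.78 ± 0.13 and the HECT ligase Smurf2 at 0.45 ± 0.08. Of 17 other F-box genes 3 fell and 1 rose, Skp2, at 0.31 ± 0.08. Of 16 ubiquitin, E1 and E2 genes 1 passed, Ube2b, a ubiquitin-conjugating enzyme, at -0.42 ± 0.09. Of 20 deubiquitinases and receptors, limma called 2 higher, the interferon-induced Usp18 by 0.98 ± 0.17 and Uchl1 by 0.61 ± 0.15, and none lower. Usp2 differed by -1.11 ± 0.34 and just missed the threshold, with an adjusted p of 0.0529 in limma. Among 17 reported substrates and partners 3 rose and 1 fell: filamin C (Flnc) rose by 1.16 ± 0.17, filamin A (Flna) by 1.10 ± 0.23 and cardiac myosin-binding protein C (Mybpc3) by 0.48 ± 0.11, and troponin I (Tnni3) fell by 0.58 ± 0.08. On the cardiomyocyte scale the split of the ligase list was 5 lower and 7 higher, that of the F-box list 1 lower and 3 higher, and 6 deubiquitinases were called higher. Without knockout TAC replicate 2 no F-box gene was called in either direction and Ube2b was not called; without knockout sham replicate 3, 5 ligases and 1 F-box gene were called lower and neither Skp2 nor Ube2b nor Uchl1 was called. Replicate 2 of the knockout sham group also decided the calls of Uchl1 and Mybpc3, its replicate 1 that of Skp2, replicate 1 of the knockout TAC group that of Uchl1, and its replicate 3 those of Skp2 and Mybpc3. Flna is also abundant in fibroblasts and immune cells, whose markers rose in the same arrays, and their part in its rise was not tested.

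**Figure D5:**
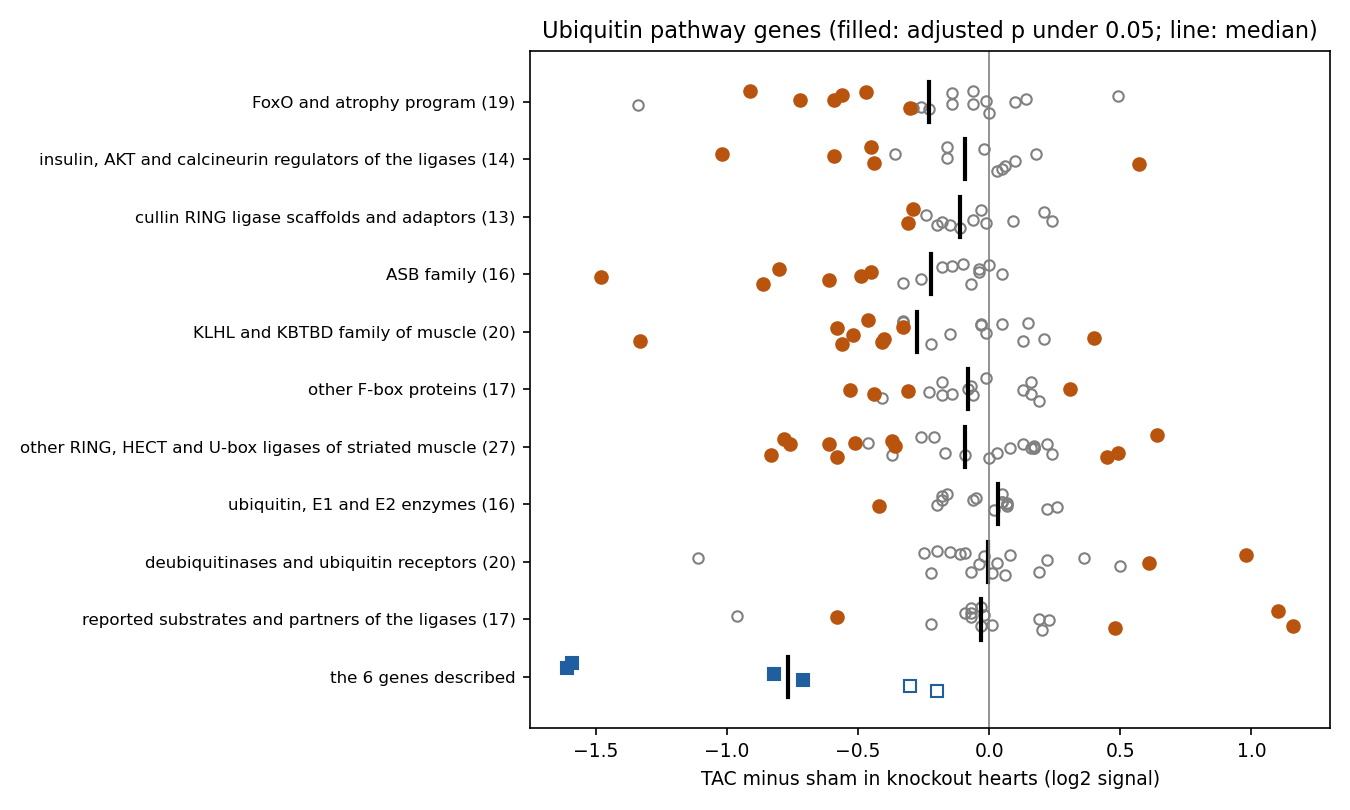
TAC minus sham in knockout hearts (log2 signal) for each gene of 10 lists, with the number of genes in each list, and for the 6 genes described (squares). Filled points had an adjusted p under 0.05 and vertical lines mark medians. The median of the 6 genes was -0.76, with Asb15 listed on a contrast that uses the same knockout TAC arrays.

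Among genes above the median signal, those whose profile over the 12 arrays came closest to each member were picked by the smallest root mean square difference of centred log2 values. The closest to Klhl38 were Maob, Slc27a1 and Ppip5k2 at 0.24, 0.25 and 0.25, where the SD of Klhl38 itself was 0.80. Asb15 was nearest to Smco1 at 0.17 and to Adhfe1 and Lrrc14b at 0.18 (SD 0.70), and Asb2 to Ubl7 and Mif4gd at 0.09 and Cluh at 0.11 (SD 0.36). Rnf122 was nearest to Kcna1 at 0.17 and to Alg12 and Slc31a2 at 0.21 (SD 0.50). For Fbxo32 they were Mrps30, Art1 and Kbtbd7 at 0.16 to 0.17, and for Trim63 Zfp346, Egr4 and Ift81 at 0.11 to 0.13, against SDs of 0.28 and 0.22. Egr4 had group means of 5.44 to 5.57, under the background percentile of 5.70, so its likeness is that of a flat, dim probe set. The search covered 9530 genes, and the 12 arrays share surgery and genotype effects, so these are descriptions of likeness.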

How the data were processed

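RNA of 12 hearts was read on Clariom D arrays. Per the submitters' processing notes the authors used Affymetrix Expression Console; its version, normalization and summarization are not given in the sources used here. The deposited values are log2 signals of 65527 probe sets. From these, 6732 control probe sets were left out, and of the rest 27268 carried 1 symbol, 1932 several and 29595 none in the platform annotation. The brightest probe set per symbol gave 26989 genes, with no filter on dim genes. limma 3.58.1 in R 4.3.3 (lmFit, eBayes; 1 mean per group, all 12 arrays, 8 residual and 3.29 prior degrees of freedom) tested 6 contrasts with Benjamini-Hochberg adjustment over all genes and calls at 0.05, two-sided. The fit was tested on simulated data. Members, gene lists and the likeness rule were chosen with earlier results of these data known. Named list genes were drawn from the up to 3 smallest p-values per list in knockout TAC against sham and in knockout against wild type after TAC. Not all of these are named, and a few further called genes were named after their values were seen. Number of arrays limits precision. Promoters and gene neighbours came from RefSeq GRCm38.p6. Alternatives changed scaling, the dim filter, the variance model, array weights, probe sets, arrays fitted, single arrays and the replicate number. Same-numbered knockout sham and knockout TAC arrays deviated together (correlations 0.25, 0.14 and 0.17), so the numbers may pair that comparison, from the data and not the labels. In the other comparisons at least 1 pair was not over 0.1. The differences and p-values in the Results come from fits without pairing. Replicate numbers entered only as the replicate block among the alternatives.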

Additional observations from a re-analysis of the deposited data

How the results depend on the processing

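In wild type hearts after TAC, the count of the 6 genes called went from 2 to 1 centred on cardiomyocyte markers, to 0 with only the compared arrays fitted and to 0 with atrial markers as covariate (chosen after seeing the data), and ranged from 0 to 2 leaving out each array in turn. Between genotypes after TAC it went from 0 to 1 (Asb15, which was listed on this contrast, so these calls support nothing) without dim genes and with the replicate block, and ranged from 0 to 1 without single arrays (1, Asb15, without wild type TAC replicate 2 or knockout TAC replicate 3). In knockout hearts it ranged from 3 to 4 without single arrays, losing Rnf122 without knockout TAC replicate 2. Averaged over genotypes it was 5 with the atrial covariate, which added Fbxo32, and 4 otherwise. Reversed differences were Fbxo32 after sham under array weights (0.07), Rnf122 between genotypes after TAC centred on array medians (0.02) and on cardiomyocyte markers (0.04), Trim63 (0.01, cardiomyocyte centring) and Klhl38 (0.04, array weights) in the interaction. Leaving out single arrays gave -0.19 to 0.10 for Klhl38, -0.22 to 0.08 for Fbxo32 and -0.17 to 0.07 for Asb15 between sham groups, -0.15 to 0.06 for Rnf122 and -0.02 to 0.26 for Fbxo32 between TAC groups, and -0.19 to 0.04 for Trim63 and -0.43 to 0.00 for Klhl38 in the interaction. Over all genes, the wild type calls of 48 became 25 centred on cardiomyocyte markers, 224 without dim genes, 352 with array weights, 266 with the replicate block, and 0 with atrial covariate or only the compared arrays, and ranged from 0 to 264 without single arrays. Calls between genotypes after TAC, 3, became 668 without dim genes, 575 with the replicate block, 30 with trend and robust variance, 1 under quantile or median scaling, and 0 with atrial covariate, all probe sets or only the compared arrays; without single arrays they ranged from 0 to 774. The replicate block moved the wild type calls among the 6 to 3 and changed no other call of the 6 than Asb15's. Of the 18 same-number pairs over the 4 groups, correlations ran from -0.07 to 0.31, 9 of them over 0.1, and 8 of 12 arrays matched their own number best, which is a hint from the data that some numbers share a source. Across settings, genes called lower in knockout hearts numbered 5 to 8 of the ASB list and 4 to 7 of the FoxO list. They numbered 5 to 9 of the KLHL and KBTBD list, 0 to 4 of the F-box list and 0 to 2 of the cullin list. Of the deubiquitinase list, 0 to 2 were called lower and 1 to 6 higher. The cause of these changes was not tested.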
